A study of Homo sapiens with 16 samples.

Results

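The genes described here are 10 X-linked cancer-testis antigen genes: MAGEA1, MAGEA4, MAGEA8, MAGEA10, MAGEA11, MAGEB2, MAGEC1, MAGEC2, SSX1 and SPANXB1. They were read through every probe set, the group of array probes summarised to 1 value, whose platform annotation gives 1 gene symbol equal to one of these names. That rule gave 12 probe sets for the 10 genes, of 22215 probe sets and 11963 genes in all, with 2 probe sets each for MAGEC2 and SSX1. The genes were proposed with their measured values known, so their levels by cell line and their differences in MDA-MB-231 are given as a description with no test.

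Cancer-testis antigens are proteins made in germ cells of the testis, silent in most adult tissues and switched on again in some tumours, where they can be seen by the immune system. Their promoters are known to be held silent by DNA methylation in somatic cells. MAGE proteins share a MAGE homology domain and many of them bind RING-type ubiquitin ligases, while SSX proteins are transcriptional co-repressors and SPANX proteins are found in the sperm nucleus.

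The study set out to alter RECK, a gene for a membrane protein that restrains matrix metalloproteinases, in human breast cancer cell lines. RNA from each of 8 groups was hybridised to 2 Affymetrix U133 2.0 arrays, 16 in all. The lines called invasive, MDA-MB-231 and LM24175, stably carried an empty vector (EV) or a constitutive RECK construct, and the lines called poorly invasive, Hs343T and Hs606T, had received a scrambled siRNA (siSCR) or an siRNA against RECK (siRECK). MDA-MB-231 is a widely used triple-negative breast cancer line, and the labels name no parent line for LM24175. Line, vector and siRNA delivery go together, so differences between the invasive and the poorly invasive lines cannot be told apart from differences between the delivery methods. Nothing in the labels ties the 2 arrays of a group to different cultures, so the p-values reflect array-to-array spread that could be technical, and the small number of arrays limits the precision. In such bulk RNA, fewer cells expressing a gene and less of its RNA in each cell cannot be told apart.

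On the log2 scale the medians of the 16 arrays ran from 6.42 to 6.56 and their lower quartiles from 4.47 to 4.67. RECK went against the siRNA labels: its probe set 205407_at read 6.07 and 5.52 in Hs343T siSCR against 11.31 and 11.24 on the arrays labelled siRECK (log2 difference 5.48, limma adjusted p = 1.12e-10). In Hs606T it read 8.74 and 8.65 against 11.17 and 11.02 (2.40, adjusted p = 1.07e-05). It differed by 0.03 with the construct in MDA-MB-231 and by -0.42 in LM24175 (adjusted p = 0.188), so no rise with the construct was measured by it. The other RECK probe sets, 216153_x_at and 216156_at, differed by 0.46 (adjusted p = 0.00157) and 0.27 (0.2) with siRECK in Hs343T and by 0.17 (0.516) and -0.10 (0.862) in Hs606T, so the size of the rise rests on 205407_at. They differed by -0.03 and -0.16 with the construct in MDA-MB-231 and by 0.05 and -0.02 in LM24175. Whether these probes can see the construct's transcript is not known. Below, siRECK names the arrays labelled so. Of 28 measured interferon-stimulated genes, 28 rose with siRECK in Hs343T and 17 in Hs606T, against 27.8% and 0.97% of all genes changed in either direction. Their part in the results below was not tested. The first array of MDA-MB-231 with empty vector and the first of LM24175 with the construct deviated together from their group means (r = 0.449 across probe sets), and the values of members that move without them are given below. All 19 measured fibroblast markers lay above the array median in Hs343T and Hs606T, against 4 in MDA-MB-231 and 8 in LM24175. Of 20 epithelial markers, 8 did so in MDA-MB-231 and 7 in LM24175 with empty vector, against 5 in Hs343T and 4 in Hs606T with siSCR. No group had more than 8. The epithelial adhesion gene EPCAM averaged 8.57 in MDA-MB-231 and 8.85 in LM24175, both with empty vector, against 4.10 and 4.67 in Hs343T and Hs606T with siSCR. Not every epithelial gene ran this way in the same 4 groups: MUC1 averaged 5.90 and 5.90 against 6.70 and 7.18. KRT14 averaged 3.62 and 3.64 against 6.62 in Hs343T, but 3.77 in Hs606T, close to the invasive lines. CDH1, another defining epithelial gene, stayed between 3.84 and 4.14 in all groups, and at most 1 of 16 leukocyte markers exceeded the array median in a group.

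The promoters of the 6 genes whose levels differed most between groups are shown first. The MAGE genes among them share a short run of letters, although they were not all high in the same line. Each stretch ends with the first base of the listed transcript and holds 100 bases in all, 5′ to 3′ on the gene's own strand, from RefSeq on GRCh38.p14. MAGEB2 is at chrX:30215464-30215563, MAGEC1 at chrX:141903795-141903894, MAGEA11 at chrX:149711961-149712060, SSX1 at chrX:48255293-48255392 and SPANXB1 at chrX:141002495-141002594, all on the plus strand, and MAGEC2 is at chrX:142205290-142205389 on the minus strand. Capitals mark the run CGGATGTG.
MAGEB2: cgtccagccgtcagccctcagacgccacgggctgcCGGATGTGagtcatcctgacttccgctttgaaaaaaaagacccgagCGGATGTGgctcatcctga
MAGEC1: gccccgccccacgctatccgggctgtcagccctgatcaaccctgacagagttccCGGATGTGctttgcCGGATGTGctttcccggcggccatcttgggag
MAGEA11: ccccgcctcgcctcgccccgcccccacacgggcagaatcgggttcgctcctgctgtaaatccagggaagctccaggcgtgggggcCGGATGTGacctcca
MAGEC2: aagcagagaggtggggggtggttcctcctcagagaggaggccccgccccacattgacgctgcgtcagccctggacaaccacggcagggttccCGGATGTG
SSX1: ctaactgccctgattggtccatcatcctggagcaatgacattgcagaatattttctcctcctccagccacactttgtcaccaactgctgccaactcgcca
SPANXB1: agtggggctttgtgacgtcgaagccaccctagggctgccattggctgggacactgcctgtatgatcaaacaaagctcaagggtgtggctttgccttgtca

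The run CGGATGTG was found by a search for the longest run of letters present, on the gene's own strand, in every MAGE member that has an entry in the promoter table, and so was chosen from these sequences. Of the 10 members, 8 had an entry, with 12 promoter windows of 250 bases before to 50 after the start; MAGEA1 and MAGEA10 did not. All 6 MAGE members with an entry hold the run, MAGEB2 and MAGEC1 in 2 copies each. It begins 64 and 18 bases before the start in MAGEB2, 45 and 31 in MAGEC1, 14 in MAGEA11, 13 in MAGEA8 and 7 in MAGEC2, and between 21 and 44 bases before it in the 5 windows listed for MAGEA4. SSX1 and SPANXB1 lack it. Of 27305 genes with a promoter in the table, 0.403% hold it on the gene's strand and 0.769% on either strand. Of 27 MAGEA, MAGEB and MAGEC genes 12 hold it on the gene's strand, among them the 6 from which it was chosen. It contains GGAT, a core that ETS family factors can bind; a match is a description of letters, not a site. CCAAT, a common promoter box picked after the sequences were seen, lies in the SSX1 window 250 bases before the start and, on the other strand, 118 and 87 bases before it. In the SPANXB1 window it lies 60 bases before the start on the other strand. The MAGEA11 window, on the other strand, and each of the 5 MAGEA4 windows hold CCAAT too, so it does not set SSX1 and SPANXB1 apart. Of the 27305 genes, 39.7% hold CCAAT on either strand in at least 1 listed window. The 300-base windows hold 21 CpG sites in MAGEB2 and in MAGEA11, 14 in MAGEC1, 12 in MAGEA8, 10 in MAGEC2, 10 to 15 in MAGEA4, 9 in SPANXB1 and 5 in SSX1, against a median of 14 over all genes. Methylation was not measured on these arrays.

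**Figure D1:**
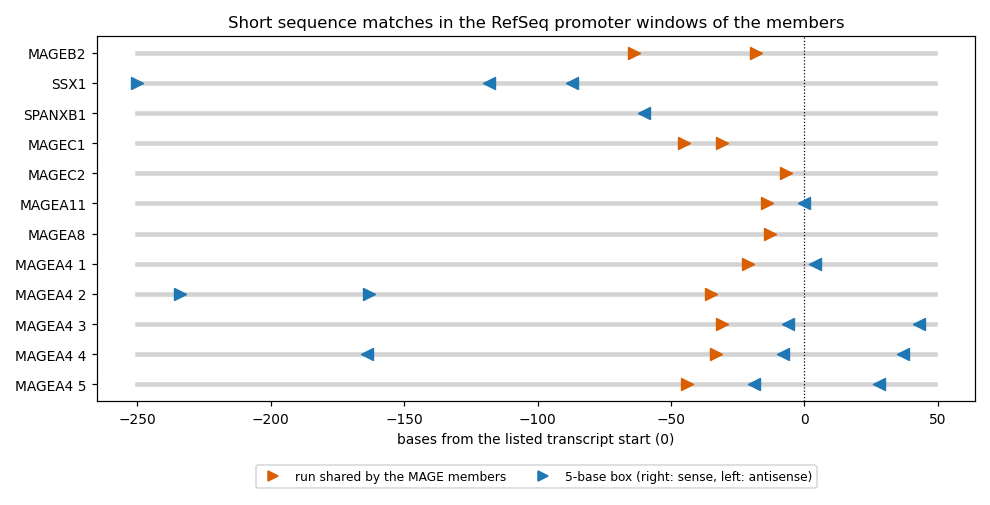
Matches in the 300-base RefSeq promoter windows of the 8 members with an entry; the horizontal axis gives bases from the listed transcript start and each grey bar is 1 window. Orange triangles mark the run shared by the 6 MAGE members and blue triangles CCAAT, pointing right on the gene's strand and left on the other; the shared run lies within 64 bases before the start in every MAGE window, and SSX1 and SPANXB1 have none.

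On the X chromosome, RefSeq places MAGEC1 directly beside MAGEC2, MAGEA11 and MAGEA8 with HSFX1 and MAGEA9 between them, SSX1 between SSX5 and SSX3, and MAGEB2 beside MAGEB3. MAGEC1 and MAGEC2, neighbours in the genome, read high in different lines, MAGEC2 by only 1 of its 2 probe sets, as the values below show.

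**Figure D2:**
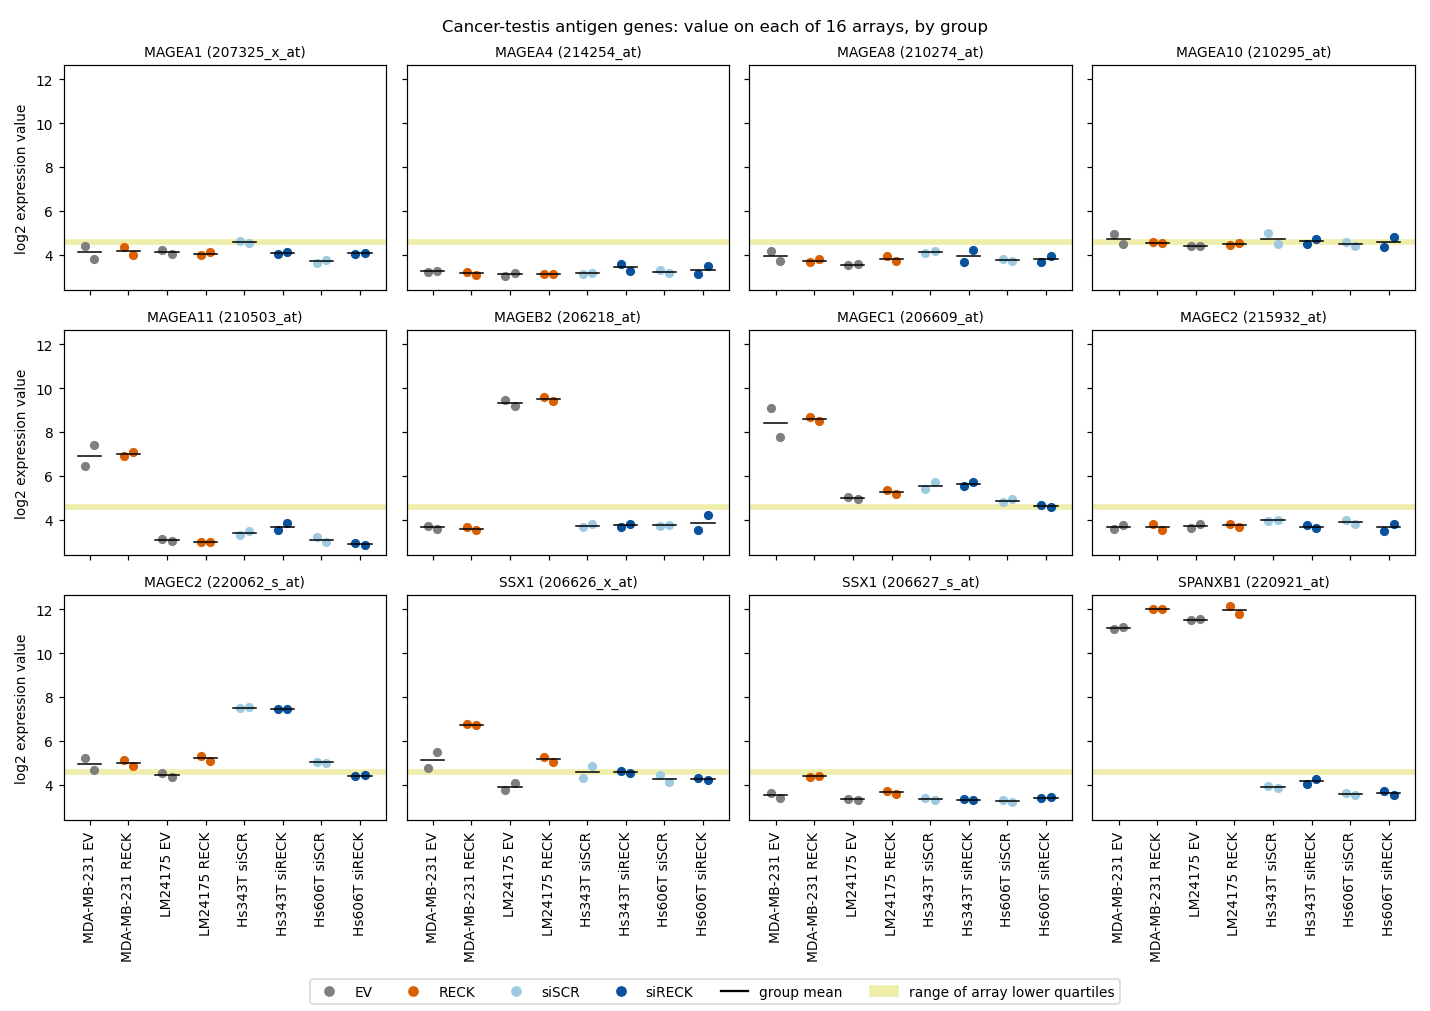
Log2 expression value of each member probe set on each of the 16 arrays (vertical axis), by line and treatment; points are arrays, black bars group means, and the yellow band the range of the arrays' lower quartiles. MAGEA11 and MAGEC1 stand highest in MDA-MB-231, MAGEB2 in LM24175, MAGEC2 (220062_s_at) in Hs343T and SPANXB1 in both invasive lines.

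By level, the lines differed in which members were high, and in Hs606T none was. Group means spanned at least 2 log2 units for 6 of the 12 member probe sets, against 14.9% of all probe sets, and those 6 belong to MAGEA11, MAGEB2, MAGEC1, MAGEC2, SSX1 and SPANXB1. They are also the 6 that exceeded the array median on at least 1 array. SPANXB1 was high in both invasive lines, MAGEA11 and MAGEC1 in MDA-MB-231 alone, MAGEB2 in LM24175 alone and MAGEC2, by 220062_s_at only, in Hs343T alone. In Hs606T none of the 12 exceeded 5.05 on any array. Because the genes were chosen with these levels known, nothing is read from the share.

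MAGEA11, a MAGE protein known as a coregulator of the androgen receptor, read 6.44 and 7.39 in MDA-MB-231 with empty vector and 6.92 and 7.09 with the construct. In LM24175 it read 3.13 and 3.02, and 2.99 and 2.99 with the construct. The 8 arrays of Hs343T and Hs606T lay between 2.85 and 3.82. The 4 MDA-MB-231 arrays were thus all above the other 12, which lay below their arrays' lower quartiles. With empty vector the mean was 3.07 ± 0.08 (SD, n = 2) in LM24175 and 6.91 ± 0.67 in MDA-MB-231, a log2 difference of -3.84 and a 14.3-fold lower level. Without the first MDA-MB-231 array the difference was -4.31.

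MAGEC1, an antigen known from myeloma and melanoma, read 9.08 and 7.76 in MDA-MB-231 with empty vector and 8.70 and 8.50 with the construct. In LM24175 it read 5.03 and 4.93, and 5.33 and 5.17 with the construct. In Hs343T it read 5.39 and 5.70 with siSCR and 5.52 and 5.69 with siRECK, and in Hs606T 4.79 and 4.94, and 4.66 and 4.56. The MDA-MB-231 arrays were the 4 highest of the 16, Hs343T followed, and LM24175 and Hs606T overlapped. With empty vector, LM24175 minus MDA-MB-231 was -3.44, a 10.9-fold difference, and -2.78 without the first MDA-MB-231 array, whose value of 9.08 was the highest.

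MAGEB2, a type I MAGE gene found next to other MAGEB genes on the short arm of the chromosome, ran the other way. It read 9.46 and 9.19 in LM24175 with empty vector and 9.58 and 9.41 with the construct. On the other 12 arrays it lay between 3.51 and 4.19. The LM24175 arrays did not overlap any other, and the other 3 lines were not separated from each other. With empty vector LM24175 was 5.69 log2 units, or 51.7-fold, above MDA-MB-231 (9.33 ± 0.19 against 3.64 ± 0.10, SD, n = 2), and with the construct 60.6-fold.

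MAGEC2, which binds the co-repressor TRIM28 and raises its ligase activity, was highest in Hs343T by 1 probe set. That probe set, 220062_s_at, whose ending marks probes shared by several transcripts, read 7.49 and 7.54 with siSCR and 7.47 and 7.45 with siRECK. In Hs606T it read 5.05 and 4.98 with siSCR and 4.37 and 4.44 with siRECK. In MDA-MB-231 it read 5.21 and 4.68, and 5.13 and 4.83 with the construct, and in LM24175 4.54 and 4.35, and 5.29 and 5.08. The 4 Hs343T arrays were above all others, and the other 3 lines overlapped. With siSCR, Hs606T minus Hs343T was -2.50, a 5.66-fold difference. The second MAGEC2 probe set, 215932_at, lay between 3.50 and 3.99 on all 16 arrays and below the lower quartile of each, so the probe sets disagree and the Hs343T level rests on 1 of them.

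SPANXB1, a protein of the sperm nucleus, had the widest split by kind of line. It read 11.12 and 11.21 in MDA-MB-231 with empty vector and 12.02 and 12.01 with the construct, and 11.51 and 11.54, then 12.17 and 11.77, in LM24175. In Hs343T and Hs606T its 8 arrays lay between 3.50 and 4.27. The mean of the invasive control arms was 7.63 log2 units, or 198-fold, above that of the poorly invasive ones. Of the 12 member probe sets only those of SPANXB1 and MAGEB2 differed by 2 or more in that average, against 6.55% of all probe sets, and the MAGEB2 difference of 2.76 came from LM24175. A probe set annotated to 4 SPANX genes including SPANXB1, which the rule leaves out, read 12.27 and 12.38 in MDA-MB-231 and 12.03 and 12.05 in LM24175 with empty vector. It read 7.99 and 7.91 in Hs343T with siSCR, where the SPANXB1 probe set read 3.95 and 3.82, and 4.47 and 5.03 in Hs606T. Both thus placed the invasive lines highest. The shared one also separated Hs343T from Hs606T with siSCR, Hs606T minus Hs343T being -3.20, which is given with no test.

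SSX1, a co-repressor known as a fusion partner of SS18 in synovial sarcoma, read highest in MDA-MB-231 with the construct. Its brighter probe set, 206626_x_at, ends in x_at, so its probes may also bind related transcripts, and its SSX5 and SSX3 neighbours are close relatives. In Hs343T and Hs606T its 8 arrays lay between 4.13 and 4.84, and siSCR and siRECK overlapped in both lines. With empty vector, LM24175 minus MDA-MB-231 was -1.21, and -1.56 without the first MDA-MB-231 array.

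The remaining members were dim throughout. MAGEA4 lay between 3.04 and 3.56 over the 16 arrays (median 3.16), MAGEA8 between 3.52 and 4.20 (median 3.76) and MAGEA10 between 4.33 and 4.97 (median 4.50). MAGEA1, read by a cross-hybridising probe set, lay between 3.61 and 4.64. Of the 12 member probe sets, 5 were at or below the array's lower quartile on every array, namely those of MAGEA1, MAGEA4 and MAGEA8, the second of MAGEC2 and the second of SSX1. MAGEA10 exceeded the lower quartile on 8 arrays, and no array of these genes reached its median.

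**Figure D3:**
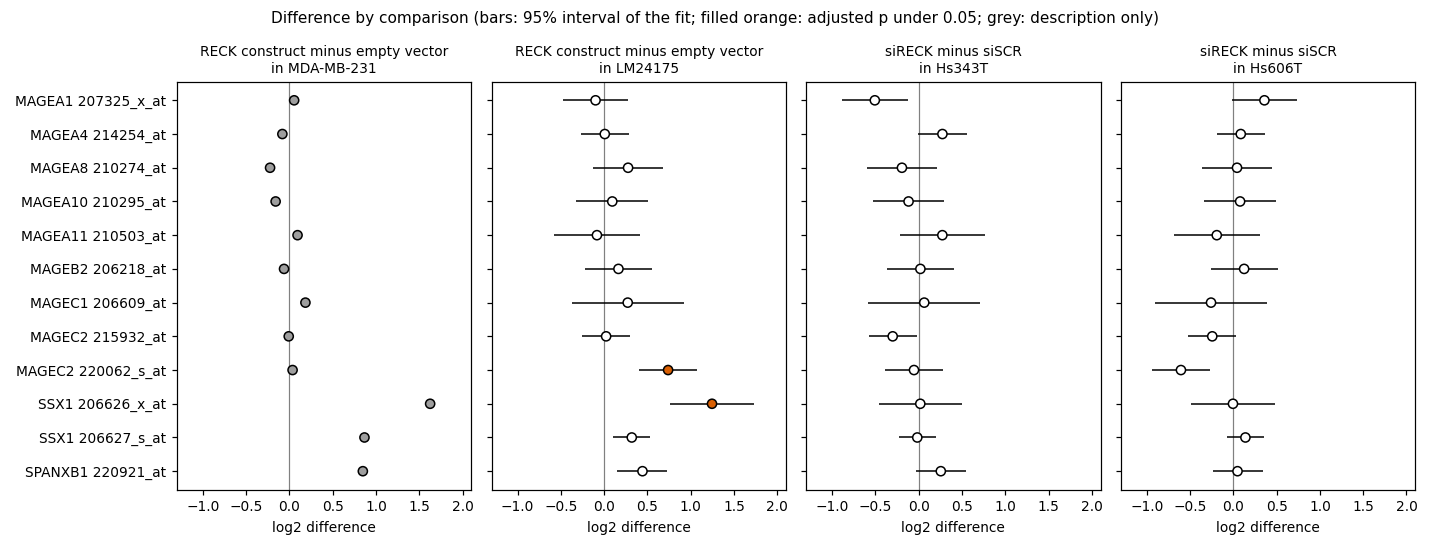
Log2 difference of each member probe set (horizontal axis) in the 4 treatment comparisons; bars are 95% intervals of the limma fit, filled orange points have an adjusted p under 0.05, and grey points are given as a description only. SSX1 and SPANXB1 lie to the right in both construct panels, and in the siRNA panels no point is filled.

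With the RECK construct, SSX1 206626_x_at rose in LM24175 (limma adjusted p = 0.00705), while the second SSX1 probe set and SPANXB1 did not pass there (0.097 and 0.0891); in MDA-MB-231 the construct arrays of all 3 lay above the controls, which is given as a description. The construct comparison in MDA-MB-231 is treated here as one used in proposing the genes; which values proposed them is not stated in the sources used here. In it 3 of 12 member probe sets of 2 genes had an adjusted p under 0.05, all higher, against 0.239% of all probe sets in either direction and 0.194% upward. The same 3 were those whose arrays did not overlap, which 19.1% of all probe sets did upward and 18.2% downward. As the rule used this contrast, nothing is read from these shares. SSX1 206626_x_at read 4.75 and 5.46 with empty vector and 6.74 and 6.72 with the construct, and 206627_s_at read 3.63 and 3.38 against 4.33 and 4.40. Both probe sets of the gene were higher with the construct without overlap, by 1.62 and 0.87 log2 units, though the second stayed below its arrays' lower quartiles. Without the first empty-vector array the differences were 1.27 and 0.99. SPANXB1 was higher by 0.85, a 1.8-fold difference. The 4-gene SPANX probe set was higher by 0.82, without an adjusted p under 0.05. Both are given as a description. MAGEA11 differed by 0.09 (95% interval -0.40 to 0.59) and MAGEC1 by 0.18 (-0.46 to 0.83), with overlapping arrays. Both rest on the first empty-vector array: without it MAGEA11 differed by -0.38 and MAGEC1 by 0.85, the construct arrays of MAGEA11 then lying below the remaining control and those of MAGEC1 above it.

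In LM24175 SSX1 and MAGEC2 rose, each through 1 of its 2 probe sets. This construct comparison shares no array with that of MDA-MB-231, though whether its values too were used in proposing the genes is not stated. Of 12 member probe sets, 2 passed, both higher, against 4.41% of all probe sets in either direction and 2.35% upward, and 4 had an unadjusted p under 0.05. SSX1 206626_x_at read 3.75 and 4.05 with empty vector and 5.26 and 5.03 with the construct. The construct arrays were both above the controls, and the rise was 1.25 ± 0.22 log2 units (SE), or 2.37-fold (95% interval 0.77 to 1.73; limma adjusted p = 0.00705). Without the first LM24175 construct array alone it was 1.13 with an adjusted p of 0.0679, without both deviating arrays 1.13 with an adjusted p of 0.0194, and without the first empty-vector array 1.10 with an adjusted p of 0.0853. The fit without both deviating arrays also leaves out an MDA-MB-231 array, which is not in this comparison. The difference thus stayed at 1.13, while the spread estimated over all groups and the adjustment changed. The second SSX1 probe set read 3.35 and 3.30 against 3.72 and 3.57, a difference of 0.32 (limma adjusted p = 0.097), below the lower quartile throughout. Both SSX1 probe sets thus pointed the same way in both lines, and the difference between the lines' responses for 206626_x_at was -0.38 (95% interval -1.06 to 0.30).

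MAGEC2 220062_s_at in LM24175 rose by 0.74 ± 0.15 (SE), or 1.67-fold, from 4.54 and 4.35 to 5.29 and 5.08 (95% interval 0.40 to 1.08; limma adjusted p = 0.0184). The groups did not overlap, and all 4 values lay between 4.35 and 5.29, against array lower quartiles of 4.47 to 4.67. The adjusted p was 0.144 without the first construct array, 0.0683 and 0.178 without either empty-vector array, 0.0629 when only the LM24175 arrays were fitted, and 0.0263 without both deviating arrays. As for SSX1, leaving out the MDA-MB-231 array as well changed only the estimated spread and the adjustment. In MDA-MB-231 MAGEC2 220062_s_at differed by 0.04, and the second MAGEC2 probe set differed by 0.02 in LM24175. SPANXB1 differed by 0.44 in LM24175 (95% interval 0.15 to 0.73; limma adjusted p = 0.0891), with both construct arrays above both controls, and by 0.24 without the first construct array (adjusted p = 0.504). MAGEB2, at its highest in this line, differed by 0.17 (-0.22 to 0.55; adjusted p = 0.76), and MAGEA11 by -0.08. Of the 12 probe sets, 7 were higher and 1 lower without overlap of the arrays, against 22.7% and 22.9% of all probe sets. Among the 7 were both SSX1 probe sets, MAGEA8, which was below the lower quartile on every array, and MAGEA10, at 0.09 (limma adjusted p = 0.898). The median difference over the members was 0.22, against 0.00 over all probe sets, and is not read as a rise of the whole set. Between the constructs' responses in the 2 lines, which share the MDA-MB-231 arrays with the comparison treated as used in proposing the genes, no member probe set had an adjusted p under 0.05, against 2.62% of all probe sets, and 2 had an unadjusted p under 0.05. These are MAGEC2 220062_s_at, with a difference of 0.70 (0.23 to 1.18), and SSX1 206627_s_at, with -0.55 (-0.85 to -0.24), given with no test, and nothing is read from these counts. Without both deviating arrays that of MAGEC2 was 0.34, and that of MAGEC1 turned from 0.09 to -0.66.

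With siRECK no member passed in either line. In Hs343T siRECK gave the largest share of probe sets that passed among the 4 treatment comparisons. Most members were dim in both lines, however. With siSCR only MAGEC1 and MAGEC2 220062_s_at lay above the lower quartile on both arrays of a line. Little room for a fall was left in the others, so nothing is read from the absence of calls. In Hs343T 0 of 12 member probe sets passed, against 24.7% of all probe sets, and 2 had an unadjusted p under 0.05, MAGEA1 and MAGEC2 215932_at. The differences ran from -0.51 to 0.27, with a median of 0.00 beside -0.05 over all probe sets. MAGEC2 220062_s_at, the member that is high in this line, differed by -0.05 (95% interval -0.39 to 0.28; limma adjusted p = 0.853). MAGEA1 read 4.64 and 4.54 with siSCR and 4.05 and 4.12 with siRECK, a difference of -0.51 (-0.88 to -0.13; adjusted p = 0.0515), with both siRECK arrays lower. Its probe set passed under 5 of the alternatives in the fit and when a single MDA-MB-231 array was left out. SSX1 and SPANXB1, the genes higher with the construct, differed by 0.02 (-0.46 to 0.50) and 0.26 (-0.03 to 0.54) from siSCR. The arrays of 3 member probe sets lay above and of 3 below siSCR without overlap, against 24.7% and 37.2% of all probe sets.

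In Hs606T 0 of 12 passed, against 0.846% of all probe sets, and 1 had an unadjusted p under 0.05. That is MAGEC2 220062_s_at, which read 5.05 and 4.98 with siSCR and 4.37 and 4.44 with siRECK, a difference of -0.60 (95% interval -0.94 to -0.27; limma adjusted p = 0.12). Both siRECK arrays were lower and fell below their lower quartile, and the probe set passed without both deviating arrays or without either MDA-MB-231 empty-vector array. The arrays left out there belong to other lines, so the difference of MAGEC2 stayed at -0.60. Only the spread estimated over all groups and the adjustment changed. MAGEA1 read 3.61 and 3.77 against 4.05 and 4.05, a difference of 0.36 (-0.02 to 0.74; limma adjusted p = 0.502). Of the 12, 2 were higher and 3 lower without overlap, against 22.4% and 24.1% of all probe sets.

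Between the siRECK responses of the 2 lines, MAGEA1 was the 1 of 12 member probe sets that passed, upward, against 16.3% of all probe sets in either direction and 9.08% upward, with 2 at an unadjusted p under 0.05. Its response in Hs606T exceeded that in Hs343T by 0.87 ± 0.25 log2 units (SE; 95% interval 0.33 to 1.40; limma adjusted p = 0.0299). The siSCR arrays of Hs343T were the highest and those of Hs606T the lowest of the 8, and all lay below the arrays' lower quartiles. The call was lost when any 1 of these 8 arrays was left out, with adjusted p-values between 0.0523 and 0.102, and when arrays were centred on their medians (0.0525). The other unadjusted one, MAGEC2 220062_s_at, differed by -0.55 (adjusted p = 0.119).

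Between the control arms of the lines, differences are descriptive, and nothing is read from the counts that follow, since the line levels are treated as used in proposing the genes. Of 12 member probe sets, 5 had an adjusted p under 0.05 between LM24175 and MDA-MB-231, against 16.3% of all probe sets (7.64% higher and 8.66% lower): MAGEB2 higher, and MAGEA11, MAGEC1, MAGEC2 220062_s_at and SSX1 206626_x_at lower. MAGEC2 differed by -0.50, and by -0.24 without the first MDA-MB-231 array. Between Hs606T and Hs343T, 2 did so, MAGEA1 with a difference of -0.90 and MAGEC2 220062_s_at with -2.50, both lower, against 31.5% of all probe sets in either direction and 15.2% lower. The arrays of 8 member probe sets were lower and of 2 higher in LM24175 without overlap (28% and 24.6% of all probe sets). In Hs606T those of 6 were lower and of 0 higher (36.1% and 31.3%).

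The genes most like each member in their pattern over the 8 group means were sought among 3030 probe sets of 1 gene that spanned at least 2 log2 units. These correlations are a description: 4 lines drive them, and the points share arrays. MAGEA11 and MAGEC1 were among each other's nearest, at r = 0.993 over the 8 group means and 0.959 over the 16 arrays. SLAMF7 and HLA-DQB1 stood beside them. Over the 8 group means their r was 0.994 and 0.980 with MAGEA11, and 0.986 and 0.981 with MAGEC1. MAGEB2 was nearest to IGFBP2 (0.999), SERPINB5 (0.991) and PTPRN2 (0.987), all high in LM24175. MAGEC2 220062_s_at was nearest to the neurofilament gene NEFL, through 3 probe sets (0.980, 0.976 and 0.971). For SPANXB1 TPD52, PLAC8 and LONRF3 reached 0.997, and 606 candidates exceeded 0.95, so its split by kind of line is a common one. For MAGEB2 11 candidates exceeded 0.95, for MAGEA11 9, for MAGEC1 8 and for MAGEC2 6. For SSX1 none did: the nearest were ENTPD3 (0.850), CST7 (0.830) and CST2 (0.823).

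**Figure D4:**
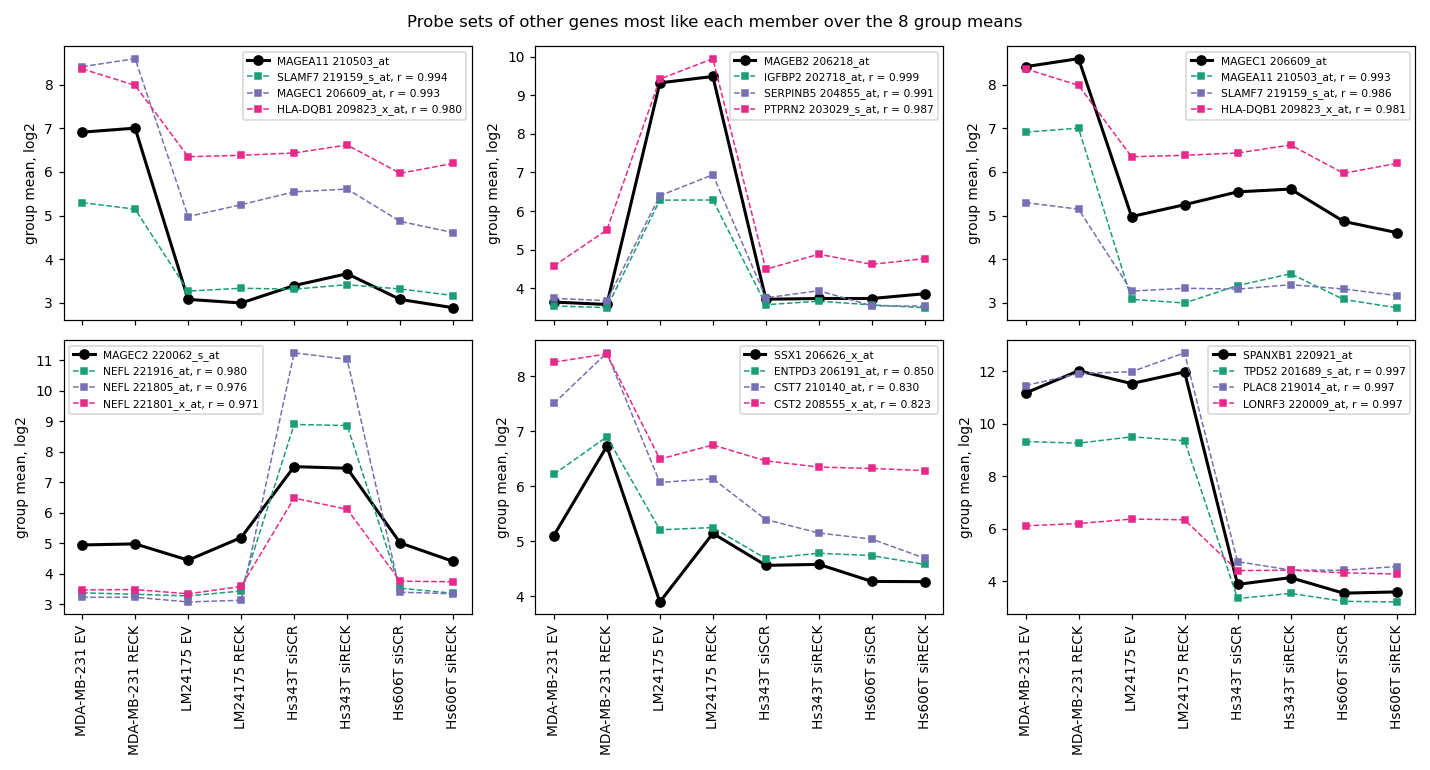
Group means on the log2 scale (vertical axis) of 6 member probe sets (black) and, for each, the 3 probe sets of other genes with the highest Pearson r over the 8 group means (dashed, r in the key); lines between groups only guide the eye. MAGEA11 and MAGEC1 drop from MDA-MB-231 to the other lines, MAGEB2 peaks in LM24175, MAGEC2 in Hs343T, and SPANXB1 falls between the invasive and the poorly invasive lines.

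Of 91 other X-linked cancer-testis genes listed, 23 were measured by a probe set of 1 gene, and most were dim. In each group 13 to 18 of the 23 lay below the lower quartile on both arrays, and at most 2 exceeded the median. With the construct none of the 23 passed in either line, against 0.251% of genes in MDA-MB-231 and 5.37% in LM24175. In LM24175 MAGEA12 differed by 0.69 with the construct (limma adjusted p = 0.0565), and MAGEA6 differed by -0.91 (adjusted p = 0.173), both through cross-hybridising probe sets. The LM24175 construct arrays of MAGEA6 lay far apart, with an SD of 1.02. With siRECK 0 rose and 2 fell in Hs343T, against 27.8% of genes changed: the decoy receptor gene IL13RA2 by 0.93 and CT55 by 0.37 (limma adjusted p = 0.00162 and 0.0253). In Hs606T none passed, against 0.97% of genes. Between LM24175 and MDA-MB-231 with empty vector 2 were higher and none lower, against 19.1% of genes. IL13RA2 averaged 12.86 against 6.86, and MAGEA6 7.24 against 3.77, through a cross-hybridising probe set. MAGEA6 also averaged 5.90 in Hs343T with siSCR but 3.91 in Hs606T, and MAGEA12 5.47 against 3.55. Both probe sets may bind each other's transcripts, so they are not separate measurements of 2 genes. TAF7L, a germ cell transcription factor, averaged 5.85 in Hs606T against 4.51 in Hs343T, and 35.3% of all genes differed between these lines.

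**Figure D5:**
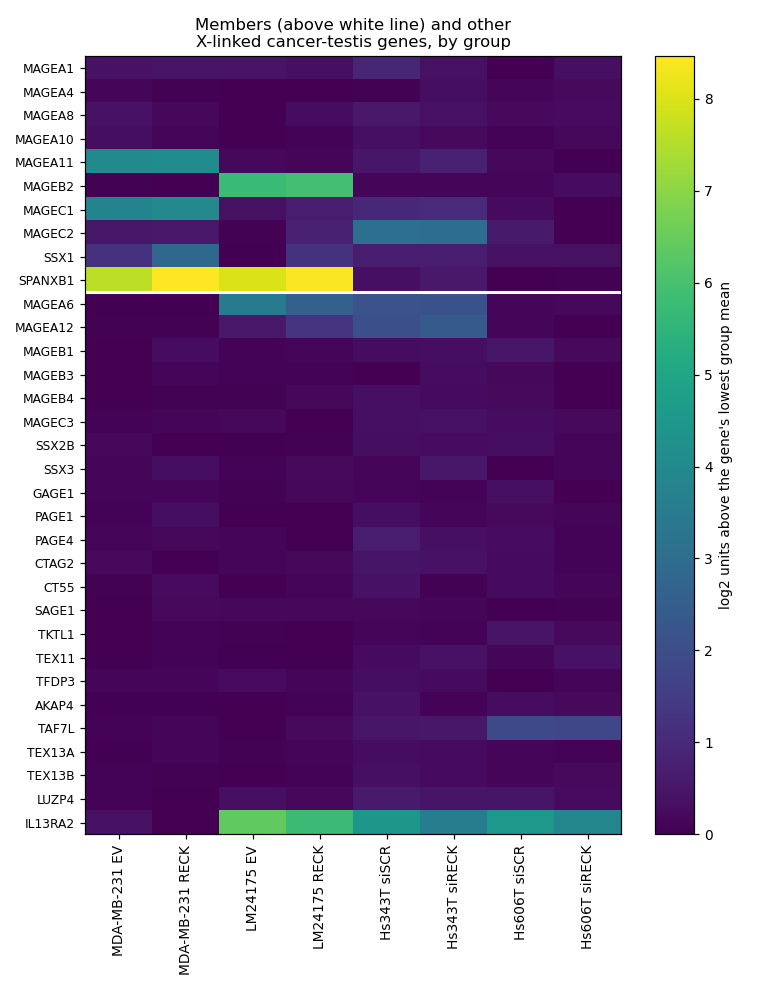
Mean level of each gene in each group, in log2 units above that gene's own lowest group mean (colour), for the 10 members (above the white line, the probe set with the highest mean) and 23 other X-linked cancer-testis genes. Bright cells mark MAGEA11 and MAGEC1 in MDA-MB-231, MAGEB2 in LM24175, SPANXB1 in both invasive lines, and IL13RA2 in the other 3 lines, while most rows stay dark.

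Genes that act with the members or on their promoters were counted from lists. Of 15 measured partners and substrates of MAGE ligases, 2 rose with the construct in LM24175, against 5.37% of all genes. They are the ligase PJA1, by 0.75 (limma adjusted p = 0.00177), and FBP1, a gluconeogenic enzyme, by 1.08 (limma adjusted p = 0.0239). With siRECK in Hs343T 2 rose and 2 fell, against 27.8%. None passed with the construct in MDA-MB-231 or with siRECK in Hs606T, against 0.251% and 0.97%. TRIM28, the partner of MAGEC2, was not among those that passed in the 4 treatment comparisons. Of 41 measured DNA methylation and silencing factors, 2 rose with the construct in LM24175, against 5.37% of all genes. They are MBD3, by 0.36 (limma adjusted p = 0.0253), and the histone methyltransferase SUV39H1, by 0.73 (limma adjusted p = 0.0257). None passed with the construct in MDA-MB-231, against 0.251%. Between these lines with empty vector 3 were higher and 7 lower in LM24175, against 19.1% of all genes in either direction, the methyl-CpG binding genes MBD2 and MBD1 by -0.97 and -0.80 among them. With siRECK in Hs343T 6 rose and 9 fell, against 27.8% of all genes in either direction, while the members, most of them dim in that line, did not pass. TDG by 1.07 and ATF7IP by 0.87 were among those that rose, and CBX5 by 1.28 and CBX3 by 0.61 among those that fell. None of the 41 passed in Hs606T, against 0.97% of all genes.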

How the data were processed

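Expression was measured on 16 Affymetrix U133 2.0 arrays, 2 in each of 8 groups. The deposited table holds log2 values for 22277 probe sets, which the authors made with Partek per the submitters' processing notes; its release and the way probes were summarised and scaled are not given in the sources used for this work. The values themselves showed the log base, and detection calls were not used. The 62 control probe sets were left out. Of the other 22215, 19064 have 1 gene symbol in the platform annotation, 1043 several and 2108 are not listed there. Groups were taken from the labels.

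All 16 arrays entered 1 fit of 8 group means in limma 3.58.1 under R 4.3.3 (lmFit, contrasts.fit, eBayes). Residual degrees of freedom were 8, prior ones 3.98, and the median residual SD was 0.134. Tests were 2-sided, with Benjamini-Hochberg adjustment over the 22215 probe sets and a threshold of 0.05. Gene lists used the probe set of a gene with the highest mean. The members and lists were chosen with earlier results of these data known. The text names every member, RECK, up to 4 passing genes of a list in a comparison by adjusted p, and the 3 probe sets most like a member; EPCAM, CDH1, KRT14, MUC1, TRIM28, MAGEA12 and MAGEA6 where they did not pass, and the shared SPANX probe set were named after their values were seen. Levels of different members were not compared with each other. Probe sets of the same gene, and the shared SPANX probe set beside that of SPANXB1, were set side by side as a description.

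Alternatives were quantile normalization, median centring, 1 probe set a gene, no dim probe sets, trended robust variances, only the arrays compared, a block for the replicate number, a least fold of 1.5, and arrays left out. Same-numbered arrays did not all deviate together (r between -0.116 and 0.449 over pairs of groups), so the numbers were not taken to pair arrays. The fit was tested on simulated data with 22215 probe sets: for the LM24175 construct it recovered 42% of 1.5-fold, 90% of 2-fold and 98% of 4-fold changes. Promoters were read from RefSeq tables (GRCh38.p14); no genome coordinates come from the arrays. Python 3.11.15 with numpy 2.4.6, pandas 2.3.3 and matplotlib 3.10.9 was used for tables and plots.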

Additional observations from a re-analysis of the deposited data

Results flagged for a closer look

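The siRECK response of MAGEA1 (207325_x_at, a cross-hybridising probe set) differed between Hs606T and Hs343T by 0.87 log2 units in the test of the difference itself (limma adjusted p = 0.0299), with opposite signs in the lines. Its values lay below the lower quartile of every array, and the difference did not pass when any 1 of the 8 arrays of these lines was left out. No explanation was tested.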

How the results depend on the processing

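Counts below are of 12 member probe sets (10 with 1 probe set a gene, 5 without dim probe sets). Of 13 member differences with an adjusted p under 0.05 over the 8 comparisons, none changed its sign under the alternatives run. Of the other 83, 35 did under at least 1. Called differences are large beside their error and the others can lie near 0, so nothing is read from this contrast. Most of the 13 also come from comparisons treated as used in proposing the genes. For the construct in MDA-MB-231 the count of 3 became 0 with only the arrays compared and ranged from 0 to 3 with 1 array left out; in LM24175 the count of 2 became 1 and ranged from 0 to 3. For siRECK in Hs343T, 0 became 1 (MAGEA1) with 1 probe set a gene, trended robust variances, only the arrays compared, the replicate block, or without both deviating arrays (0 to 1 with 1 array left out). In Hs606T, 0 became 1 (MAGEC2 220062_s_at) without both deviating arrays (0 to 1). The difference of construct responses became 1 (SSX1 206627_s_at) without them (0 to 2). The difference of siRECK responses, 1, became 0 with median centring or without dim probe sets, and 2 with only the arrays compared or without both deviating arrays (0 to 2). Between LM24175 and MDA-MB-231 the count stayed between 4 and 6 with 1 array left out. Between Hs606T and Hs343T, 2 became 1 without dim probe sets, 5 with only the arrays compared and 4 without both deviating arrays (2 to 3). The counts of 6 probe sets spanning 2 log2 units and of 2 split by kind of line did not change. With the replicate number as a block, the other comparisons gave the same counts; the cause of the changes was not tested. The depth of the signal limits 5 of the 12 probe sets, which stayed at or below the lower quartile on every array.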

Other observations

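Among 40 measured autosomal germline and cancer-testis genes, none passed with the construct in either invasive line or with siRECK in Hs606T. The shares of all genes that passed were 0.251% in MDA-MB-231, 5.37% in LM24175 and 0.97% in Hs606T. With siRECK in Hs343T 2 rose and 6 fell, against 27.8% of all genes changed. The mitotic genes CEP55, PBK and TTK, which are known from the testis and from dividing cells, fell by 1.82, 1.92 and 1.51 (limma adjusted p = 6.01e-06, 2.34e-05 and 3.49e-05), and SPAG9 rose by 0.67 (adjusted p = 7.63e-05).

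Among 6 measured MAGE genes that are widely expressed in adult tissue, MAGEH1 rose with the construct in LM24175 by 1.33 (limma adjusted p = 5.81e-04), where the difference from the MDA-MB-231 response was 1.14 (adjusted p = 0.0157). It fell with siRECK in Hs343T by 1.14 (adjusted p = 9.88e-05), and its siRECK response in Hs606T exceeded that by 1.06 (adjusted p = 0.00399). Between LM24175 and MDA-MB-231 with empty vector, MAGED1 was higher by 1.48 (adjusted p = 7.13e-04) and NDN by 0.56 (adjusted p = 0.00995), while MAGEF1 was lower, at -0.40 (adjusted p = 0.0158).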
